A study of Mus musculus with 6 samples.

Results

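The genes described here encode the transcription factor Nrf2, its inhibitor Keap1 and proteins that act with or against them: Nfe2l2, Keap1, Mafg, Mafk, Bach1, Sqstm1 and Osgin1. They were taken by gene name from the table of 34745 genes, which lists each of the 7 names once, and all 7 had enough counts to be tested among 11711 genes. RNA-seq was done on RAW 264.7, a macrophage line made from mouse tumour cells, after exposure to the solvent DMSO (3 libraries) or to bisphenol AP (BPAP, 3 libraries), a relative of bisphenol A used in plastics. The series is about BPAP, macrophages and lung fibrosis, and this comparison asks which macrophage genes respond to BPAP. The labels name the same line for both groups and no genetic change, and BPAP's dose and the length of exposure are not given in these sources.

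Nrf2, the product of Nfe2l2, activates genes of antioxidant defence. In resting cells Keap1 holds it and hands it to a Cul3 ubiquitin ligase, so that it is degraded. Oxidants and electrophiles modify Keap1, Nrf2 then builds up, pairs with a small Maf protein such as MafG or MafK, and binds antioxidant response elements in DNA. Bach1 pairs with the same small Mafs and represses many of these sites until heme releases it. The autophagy receptor p62, made from Sqstm1, binds Keap1 and can draw it into autophagosomes. Osgin1 is a growth inhibitor gene induced under oxidative stress, and both it and Sqstm1 are known Nrf2 targets.

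The 250 bases before the RefSeq start site (GRCm38.p6) are shown for the 2 genes that passed the test described below, Sqstm1 and Mafk. They are also shown for Osgin1, whose window held the rarer of the 2 patterns marked. Capitals mark matches to TGACNNNGC, the core of the antioxidant response element, or to TGANTCAGC, a form that joins an AP-1-like site to the GC of that core, searched on both strands with N for any base. The sequences run 5′ to 3′ on the strand of each gene. The Sqstm1 window is chr11:50210821-50211070 on the minus strand, that of Mafk chr5:139791286-139791535 on the plus strand and that of Osgin1 chr8:119436897-119437146 on the plus strand.
Sqstm1: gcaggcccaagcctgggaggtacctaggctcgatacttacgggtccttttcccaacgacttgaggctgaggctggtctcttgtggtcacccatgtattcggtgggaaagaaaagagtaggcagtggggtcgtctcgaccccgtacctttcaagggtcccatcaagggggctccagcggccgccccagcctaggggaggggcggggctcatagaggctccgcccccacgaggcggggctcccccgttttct
Mafk: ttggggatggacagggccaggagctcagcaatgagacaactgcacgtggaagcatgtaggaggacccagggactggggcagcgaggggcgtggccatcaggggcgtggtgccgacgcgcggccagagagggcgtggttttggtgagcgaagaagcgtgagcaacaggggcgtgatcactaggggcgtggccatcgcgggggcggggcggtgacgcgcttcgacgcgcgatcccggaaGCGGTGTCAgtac
Osgin1: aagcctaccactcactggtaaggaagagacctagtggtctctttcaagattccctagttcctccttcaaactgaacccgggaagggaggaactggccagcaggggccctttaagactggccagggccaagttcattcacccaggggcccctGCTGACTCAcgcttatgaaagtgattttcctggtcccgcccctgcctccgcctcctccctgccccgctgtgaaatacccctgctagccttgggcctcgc

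Osgin1 held TGANTCAGC on the opposite strand, at 119437048 to 119437056 on chromosome 8, a match found in 1.19% of 32851 RefSeq promoter windows of the same kind, which also take in the first bases after the start. The 7 letters TGANTCA within it occur in 7.81% of them. TGACNNNGC was present in 12.4% of all windows and in those of Nfe2l2 (TGACTCCGC, gene strand), Mafg (GCACGGTCA, opposite strand) and Mafk (GCGGTGTCA, opposite strand). The match of Mafk lies 13 bases before the RefSeq start and inside the first exon of the longer GENCODE M21 gene model. The whole Osgin1 window, with its match, lies inside the GENCODE M21 gene model of Osgin1, which starts farther upstream at 119434124. In that window 29 bases are exon of Osgin1 itself. Neither pattern was found in the windows of Sqstm1, Keap1 and Bach1, which says only that those letters are not in these windows.

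Library totals ranged from 11084705 to 13806559 counts. DMSO 1 had 10.8% of its counts on mitochondrial genes, against 6.53% to 7.55% in the other libraries. On the first principal component, the main axis of variation among libraries (54.7%), BPAP 2 was at 36 and BPAP 1 and 3 at 17.3 and 18. DMSO 1 was at -29.7 there, and DMSO 2 and 3 at -20.2 and -21.4. Levels are given in CPM, TMM-scaled counts per 1000000 counts, corrected for library size and composition. All 8 macrophage markers were above 1 CPM in every library, with summed levels of 4570 to 5150 CPM in DMSO and 5120 to 5480 CPM in BPAP. Of these 8, Cd14 (2.46-fold), Lyz2, Adgre1 and Spi1 rose, Ptprc and Csf1r were 1.56-fold and 1.33-fold lower, and Cd68 and Itgam did not pass. The summed markers of fibroblasts, epithelial, T and endothelial cells stayed at or below 1.13 CPM in every library, and Pdgfra, Epcam, Cdh1, Cd3e and Cdh5 had 0 counts. Nothing in the labels tells whether replicate libraries came from separate cultures, and the p-values therefore measure the spread among these libraries, which may be technical.

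Of the 7 genes, Sqstm1 and Mafk rose in BPAP and 0 fell (edgeR's quasi-likelihood test, adjusted p under 0.05 over all genes tested). Sqstm1 rose 2.01-fold and Mafk 1.35-fold. In bulk RNA, more cells with a transcript and more of it per cell cannot be told apart. The other 5 genes did not pass, though the log2 fold change of all 7 was above 0, which was also so for 51.6% of all genes tested. The share called, 28.6% of 7, lay close to that of all tested genes, of which 31.7% passed, 16.2% higher and 15.5% lower. The values of the 2 groups did not overlap in Sqstm1 and Mafk, against 49.0% of all genes tested. Log2 fold changes in these libraries declined with exon length, from a median of 0.35 in the decile of genes with the shortest exons to -0.29 in that with the longest. For the 7 genes the log2 fold change is therefore also given with the trend on exon length and GC content taken out of every library. As counts these shares are not a result about the group, and what follows is therefore given gene by gene.

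**Figure D1:**
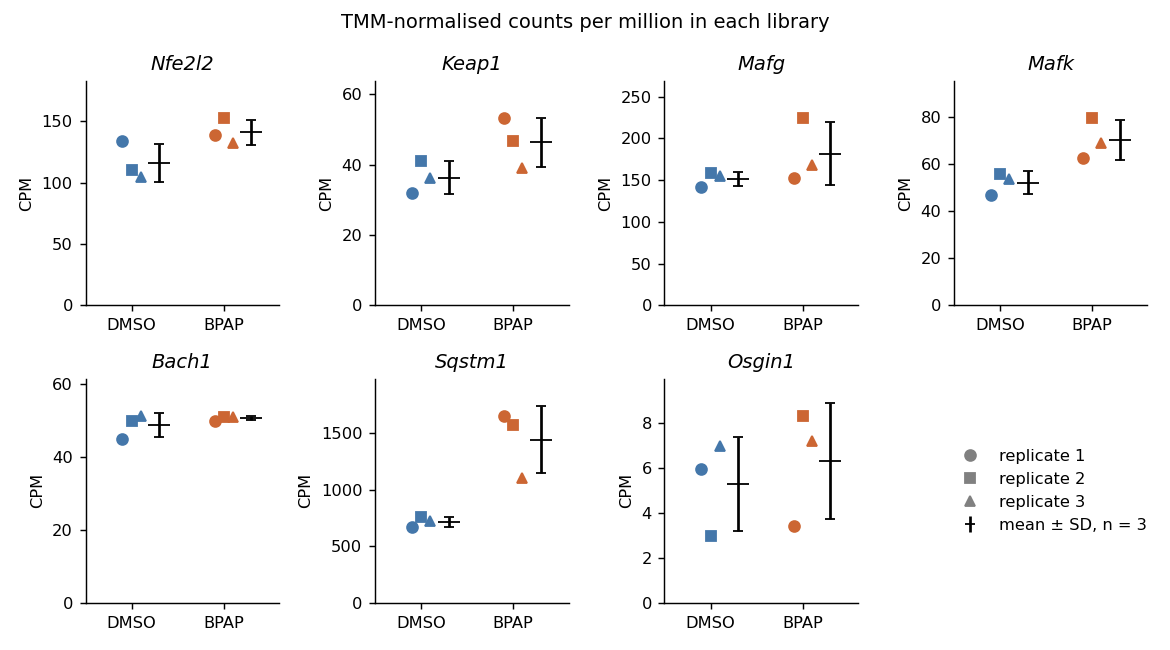
TMM-scaled CPM (linear axes from 0) of the 7 genes in each of the 3 DMSO and 3 BPAP libraries, with the mean and SD beside them. In Sqstm1 and Mafk every BPAP library lies above every DMSO library, and in the other 5 genes the groups overlap.

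Nfe2l2 (ENSMUSG00000015839, chromosome 2, 75675513 to 75704641, minus strand, GRCm38), the Nrf2 gene itself, was at 134, 110 and 105 CPM in DMSO and at 139, 153 and 132 CPM in BPAP. The groups overlapped through a single library, since DMSO 1 lay just above BPAP 3. The means were 116 ± 15.3 and 141 ± 10.3 CPM (SD, n = 3 per group). The log2 fold change of 0.28 (SE 0.11) had an unadjusted 95% interval from 0.04 to 0.52 and did not pass (adjusted p = 0.0727). Without DMSO 1, the library with the high mitochondrial share, it was 0.37 and passed (adjusted p = 0.0307). It was 0.21 (adjusted p = 0.185) with the length and GC trend removed. The part of DMSO 1's mitochondrial share in these values was not tested.

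Keap1 (ENSMUSG00000003308, chromosome 9, 21229730 to 21239332, minus strand) was at 31.9, 41.1 and 36.1 CPM in DMSO and at 53.1, 46.8 and 39.0 CPM in BPAP. BPAP 3 lay below DMSO 2, and the other 2 BPAP libraries were above all of DMSO. The log2 fold change was 0.35 (SE 0.14, adjusted p = 0.0740), with an unadjusted 95% interval from 0.05 to 0.65, and 0.34 with the length and GC trend removed (adjusted p = 0.0858). It passed without BPAP 3 (0.46, adjusted p = 0.0329), and was 0.25 without DMSO 1 (adjusted p = 0.255) and 0.24 without BPAP 1 (adjusted p = 0.240). Gm16754, an antisense RNA gene chosen for description after its values were seen, shares 510 exon bases with Keap1, or 10.9% of them, on the opposite strand. It was at 39.0, 39.4 and 35.6 CPM in DMSO and at 25.2, 21.8 and 28.4 CPM in BPAP, 1.51-fold lower (adjusted p = 0.00531). Its 2353 counts in the 6 libraries are of the same order as the 3075 of Keap1. Whether counting used strand is not given in these sources, so reads from the shared bases cannot be assigned and both values are uncertain.

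Sqstm1 (ENSMUSG00000015837, chromosome 11, 50199366 to 50210827, minus strand) encodes p62, which carries ubiquitinated cargo to autophagosomes and competes with Nrf2 for Keap1. Its level was 671, 757 and 727 CPM in the DMSO libraries and 1653, 1573 and 1106 CPM in the BPAP libraries. Every BPAP library was above every DMSO library, with BPAP 3 the lowest of the treated ones. The means were 718 ± 43.4 and 1444 ± 295 CPM (SD, n = 3 per group). On the log2 scale BPAP was higher by 1.01 (SE 0.14), at an adjusted p of 0.00132. A larger log2 fold change was seen in 164 of the 11711 tested genes.

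The Sqstm1 call was kept in each of the 15 alternative fits, with log2 fold changes from 0.84 to 1.17. The merged exons of Sqstm1, at 3356 bases, put it in a decile of genes whose median log2 fold change was 0.13. With the length and GC trend removed, Sqstm1 was 1.81-fold higher (log2 fold change 0.86, adjusted p = 0.00341). Mrnip, a gene on the opposite strand named 3010026O09Rik in the deposited table, shares 580 exon bases with Sqstm1, or 17.3% of them. Mrnip had 604 counts in the 6 libraries together, against 80014 for Sqstm1.

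Mafk and Mafg encode small Maf proteins, the class of partner with which Nrf2 pairs to bind DNA. MafG and MafK themselves carry no activation domain. Mafk (ENSMUSG00000018143, chromosome 5, 139791513 to 139802653, plus strand) was at 46.7, 55.8 and 53.9 CPM in DMSO and at 62.7, 79.5 and 69.1 CPM in BPAP. All 3 BPAP libraries exceeded the highest DMSO library, DMSO 2. The means were 52.1 ± 4.78 and 70.4 ± 8.48 CPM (SD, n = 3 per group). The difference was 0.43 on the log2 scale (SE 0.11), at an adjusted p of 0.0172. The call was lost without DMSO 1 (log2 fold change 0.34, adjusted p = 0.0754) and kept in the other 14 alternatives, among them the fit with the length and GC trend removed (0.35, adjusted p = 0.0300).

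Mafg (ENSMUSG00000051510, chromosome 11, 120625117 to 120633600, minus strand) was at 142, 158 and 155 CPM in DMSO and at 152, 224 and 168 CPM in BPAP. BPAP 2 stood above the rest, BPAP 3 slightly above DMSO, and BPAP 1 lay within the DMSO range. Its log2 fold change was 0.26 (SE 0.13, adjusted p = 0.164), with an unadjusted 95% interval from -0.04 to 0.56, and it was 0.08 without BPAP 2 and 0.28 with the length and GC trend removed (adjusted p = 0.115). Sirt7, a deacetylase gene on the same strand, shares 124 exon bases with Mafg.

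Bach1 (ENSMUSG00000025612, chromosome 16, 87698945 to 87733346, plus strand), the repressor that competes for these Mafs, was at 45.1, 50.1 and 51.3 CPM in DMSO and at 50.1, 51.0 and 51.0 CPM in BPAP. The BPAP values lay within the DMSO range. The log2 fold change was 0.05 (SE 0.09, adjusted p = 0.690), with an unadjusted 95% interval from -0.15 to 0.26, and without DMSO 1, the lowest library, it was -0.02. It was 0.14 with the length and GC trend removed (adjusted p = 0.263).

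Osgin1 (ENSMUSG00000074063, chromosome 8, 119434124 to 119446256, plus strand) was the least counted, with 38 to 100 counts per library. It was at 5.97, 2.97 and 6.97 CPM in DMSO and at 3.42, 8.32 and 7.22 CPM in BPAP. One library of each group was low, DMSO 2 and BPAP 1, and the groups overlapped over most of their range. The log2 fold change of 0.25 had an SE of 0.39 and an unadjusted 95% interval from -0.66 to 1.15 (adjusted p = 0.660). The interval runs from a lower level to one over 2-fold higher, and the wide interval goes with the spread among libraries of a group, from 2.97 to 6.97 CPM in DMSO alone. Without DMSO 2 the log2 fold change was -0.04, and with the length and GC trend removed it was 0.06 (adjusted p = 0.924).

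**Figure D2:**
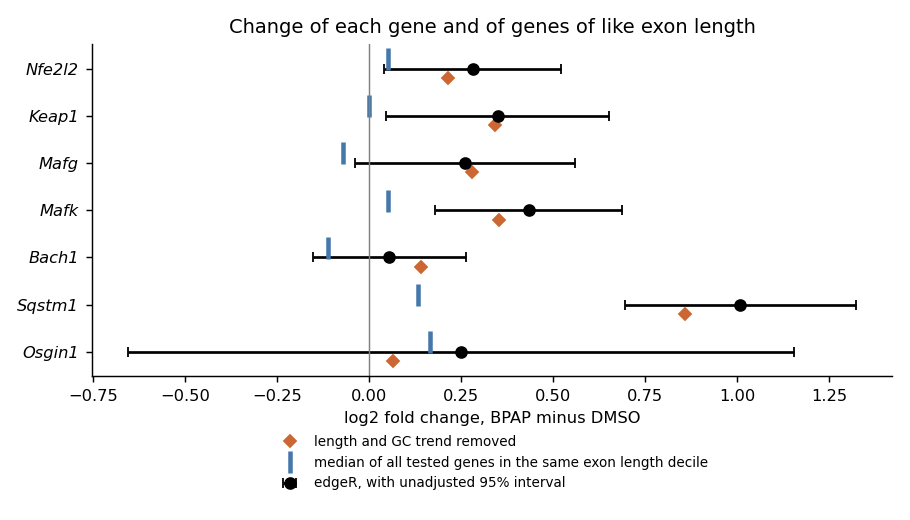
Log2 fold change (BPAP minus DMSO) of each gene with its unadjusted 95% interval (black), the same after each library's exon length and GC trend was removed (orange), and the median of all tested genes in the same exon length decile (blue). Sqstm1, at 1.01, lies farthest from its decile's median of 0.13, and the interval of Osgin1 is the widest.

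The level of each gene was compared per kilobase of merged GENCODE exons, to allow for gene length. In DMSO, Sqstm1 was the most abundant at 214 ± 12.9 CPM per kb (SD, n = 3), rank 164 of 11665 genes, and in BPAP it reached 430 ± 88.0 CPM per kb, rank 109. Nfe2l2 followed at 30.6 ± 4.03 and Mafg at 27.0 ± 1.54 CPM per kb in DMSO. The ranges of these 2 genes overlapped there, from 27.6 to 35.2 and from 25.3 to 28.2 CPM per kb. Mafk was next at 13.4 ± 1.23 CPM per kb, apart from its neighbours in the order. Bach1 at 7.90 ± 0.53 and Keap1 at 7.74 ± 0.98 CPM per kb were not distinguishable by their ranges in DMSO, and Osgin1 was lowest at 1.98 ± 0.78 CPM per kb. In BPAP the Keap1 libraries, from 8.32 to 11.3 CPM per kb, lay above those of Bach1, from 8.10 to 8.26. All these levels, and with them the comparison of Bach1 and Keap1, depend on the length used. In DMSO the mean deposited FPKM was 103.5 for Sqstm1 and 29.9 for Nfe2l2, with the same order of the 7 genes. By deposited FPKM Bach1 was above Keap1 without overlap in DMSO, at 7.07 ± 0.64 against 4.69 ± 0.67. The same held in BPAP, at 7.18 ± 0.10 against 5.85 ± 0.91.

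**Figure D3:**
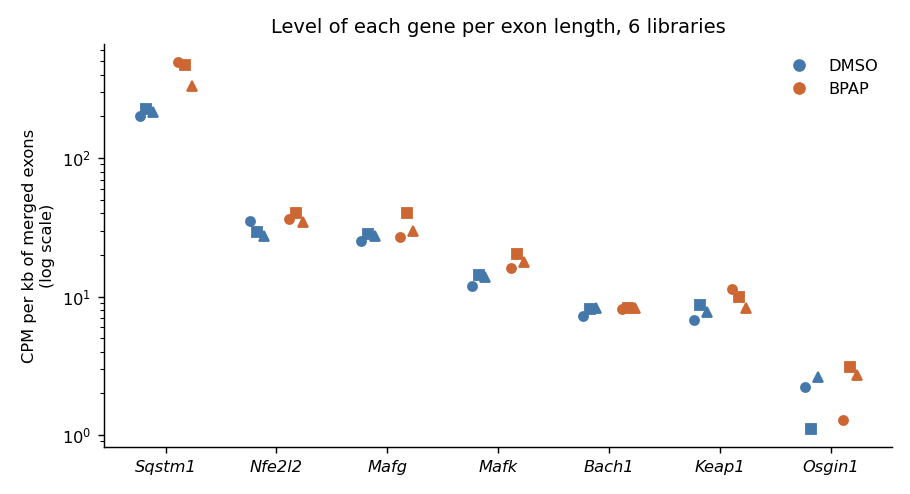
CPM per kilobase of merged exons (log scale) of the 7 genes in the 6 libraries, ordered by their mean in DMSO. Sqstm1 lies between 200 and 493 and Osgin1 between 1.11 and 3.11.

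Ratios between these genes within a library do not depend on how libraries are scaled. Those to Keap1 carry the uncertainty of its counts, given above for the bases shared with Gm16754. Counts of Sqstm1 were 21.1, 18.4 and 20.2 times those of Keap1 in DMSO and 31.1, 33.6 and 28.3 times in BPAP. The groups did not overlap, and the log2 ratio was higher by 0.64 in BPAP (exact permutation test, 2-sided, p = 0.1, adjusted p = 0.20 over 6 ratios). With 3 libraries a group this test cannot go below 0.1. Counts of Mafk were 1.04, 1.11 and 1.05 times those of Bach1 in DMSO and 1.25, 1.56 and 1.36 times in BPAP, a log2 difference of 0.37 with the same exact p of 0.1. That difference was 0.21 with the length and GC trend removed. Counts of Mafg relative to Mafk were lower in BPAP without overlap, going from 3.04, 2.84 and 2.87 times to 2.43, 2.82 and 2.43 times, also at an exact p of 0.1. The log2 difference was -0.19, and -0.09 with the trend removed. DMSO 2 and BPAP 2 were nearly level in that ratio.

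The ratio of Nfe2l2 to its inhibitor overlapped between groups. Counts of Nfe2l2 were 4.20, 2.69 and 2.91 times those of Keap1 in DMSO and 2.61, 3.26 and 3.39 times in BPAP, a log2 difference of -0.06 (exact permutation p = 0.8). It was 0.13 without DMSO 1 and 0.05 without BPAP 1. The ratios of Nfe2l2 and of Mafg to Bach1 overlapped between groups, with log2 differences of 0.23 and 0.18 (exact permutation p = 0.3 for each). That of Nfe2l2 to Bach1 was 0.08 with the length and GC trend removed and 0.12 to 0.39 without 1 library. That of Mafg to Bach1 was 0.12 with that trend removed and 0.03 without BPAP 2.

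**Figure D4:**
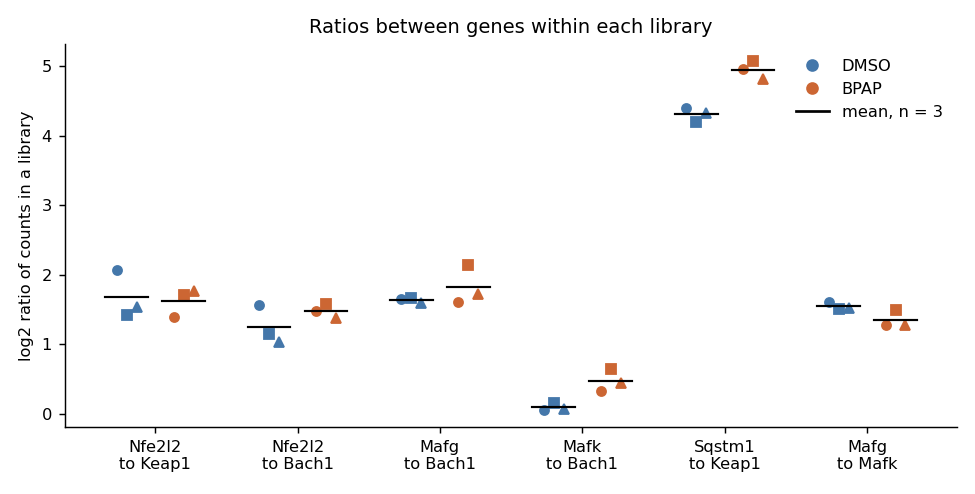
Log2 ratio of the raw counts of 2 genes in each library, with the mean of 3 libraries as a line. The ratios of Sqstm1 to Keap1 and of Mafk to Bach1 are higher in every BPAP library, and that of Nfe2l2 to Keap1 overlaps between groups.

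Among genes that Nrf2 is known to regulate, 0 of 34 tested fell and 20 rose (58.8%, against 16.2% of all genes tested). Their median log2 fold change was 0.40, against 0.02 for all genes tested. This list takes in genes of glutathione, NADPH and iron handling whose rise in these libraries was known when it was drawn up. By the smallest p, the examples are the ferritin heavy chain gene Fth1 and the lipid peroxide reductase gene Gpx4, 1.76-fold and 1.88-fold higher, and the sulfiredoxin gene Srxn1 and the peroxiredoxin gene Prdx1, 2.53-fold and 1.70-fold higher. Srxn1 was at 32.7, 34.5 and 35.6 CPM in DMSO and at 82.3, 111 and 66.7 CPM in BPAP, with BPAP 3 the lowest treated library, as in Sqstm1. With the length and GC trend removed, 15 of the 34 rose, 0 fell and the median was 0.30. In that fit 1383 of 11665 genes tested rose and 1308 fell. The tested genes of the list had a median of 3062 exon bases, against 4298 for all genes tested. With the trend left in, 22.3% and 18.5% of genes rose in the exon length deciles with medians of 2643 and 3266 bases.

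Nqo1, the quinone reductase gene often used as a readout of Nrf2, was close to undetected in these libraries. It had 2 counts in DMSO 2 and 0 in the other 5 libraries, and was not tested. In the smallest library, 0 counts leave room for a level of up to about 0.275 CPM, that of 3 counts. This is an approximate 95% limit from counting error alone.

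Of the CNC factors, which include Nrf2 and Bach1, and the Maf factors, 7 of 11 genes were tested, 2 rose and 0 fell (28.6% higher, against 16.2% of all genes tested), with a median log2 fold change of 0.28, and 4 of its tested genes were described above. Besides Mafk, Maff, the third small Maf gene, rose 1.22-fold, from 30.9, 33.6 and 33.0 CPM to 39.7, 40.2 and 38.6 CPM. Its adjusted p of 0.0450 became 0.0650 to 0.137 in the fits without 1 library and 0.419 with the length and GC trend removed. With that trend removed 1 gene of the list rose, Mafk, and 0 fell, against 1383 and 1308 of the 11665 genes in that fit. Nfe2, Nfe2l3, Bach2 and Maf had at most 3 counts in a library.

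In the list of Keap1, Cul3 and their ligase partners, 1 of 12 genes rose and 0 fell (8.33% higher, against 16.2% of all genes tested). The median log2 fold change was 0.02, and 0.16 with the length and GC trend removed. Klhl22, another Cul3 adaptor gene, rose 1.32-fold (adjusted p = 0.0293), a call lost without DMSO 1 (0.101), BPAP 1 (0.0627) or BPAP 2 (0.0573). Of 20 tested genes for other turnover, competitors for Keap1 and coactivators, 7 fell and 0 rose (median log2 fold change -0.06). The 35% that fell stand against 15.5% of all genes tested, and against 18.5% in the decile of exon length that holds the list's median of 5503 bases. The chromatin remodeller genes Chd6 and Smarca4 were 1.47-fold and 1.41-fold lower. The acetyltransferase gene Ep300 and the kinase gene Prkcd were 1.51-fold and 1.28-fold lower. The merged exons of Chd6 and Ep300 span 19093 and 14273 bases, those of Smarca4 and Prkcd 6475 and 5544. In the decile with the longest exons, which holds Chd6 and Ep300, 44% of genes fell. The decile of the list's median therefore does not stand for every gene of the list. With the length and GC trend removed 3 genes of the list fell and 3 rose, against 1308 and 1383 of the 11665 genes in that fit. Chd6 did not pass there (log2 fold change -0.17, adjusted p = 0.159). Ep300 went from -0.60 to -0.33 on the log2 scale (adjusted p = 0.0237). Without DMSO 1 or without DMSO 2, 4 genes of the list fell, against 1366 of 11839 and 1235 of 11846 genes tested.

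The autophagy list holds cargo receptors such as p62, the Atg8 proteins they bind and regulators of both. Of its 16 tested genes, 5 rose and 3 fell, or 31.2% and 18.8%, against 16.2% and 15.5% of all genes tested (median log2 fold change 0.04). One of the 5 is Sqstm1, which was chosen for this description. Gabarapl2 and Gabarap, genes of Atg8 proteins to which p62 binds, rose 1.43-fold and 1.45-fold, and Mitf, a transcription factor gene of lysosome and pigment genes, was 1.43-fold lower. With the length and GC trend removed, 3 rose and 2 fell, against 1383 and 1308 of the 11665 genes in that fit. Gabarap did not pass there (adjusted p = 0.163). In the list of heme synthesis, heme breakdown and Bach1 control, 3 of 16 rose and 2 fell, or 18.8% and 12.5%, close to the 16.2% and 15.5% of all genes tested. The median log2 fold change was 0.09, and 0.01 with the length and GC trend removed. Alas1, of the first step of heme synthesis, and Hmox2, the gene of the constitutive heme oxygenase, rose 1.37-fold and 1.45-fold. The third gene that rose, the heme oxygenase gene Hmox1, is a known target of both Nrf2 and Bach1 and is named after its values were seen. It was at 665, 652 and 579 CPM in DMSO and at 930, 706 and 768 CPM in BPAP, 1.27-fold higher (adjusted p = 0.0405). That call was lost on leaving out any library but BPAP 2 (0.0603 to 0.150) and with the length and GC trend removed (log2 fold change 0.04, adjusted p = 0.860). Ppox, of a late step of heme synthesis, was 1.36-fold lower, and Xpo1, whose product exports Bach1 from the nucleus, 1.27-fold lower. Hmox2 did not pass with the length and GC trend removed (adjusted p = 0.129), nor did Xpo1 (0.426), whose call was also lost in each fit without 1 library but that without BPAP 3 (0.0665 to 0.118).

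**Figure D5:**
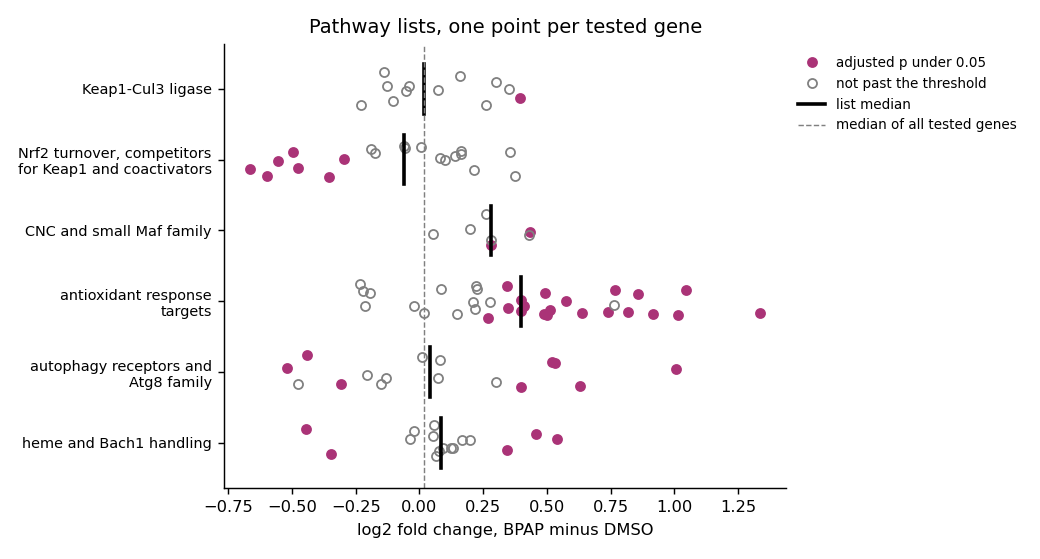
Log2 fold change (BPAP minus DMSO) of every tested gene in 6 pathway lists, filled where the adjusted p was under 0.05, with each list's median as a black line and that of all tested genes dashed. The antioxidant response targets have the highest median, 0.40, and the turnover and coactivator list the lowest, -0.06.

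The genes closest in pattern to each of the 7 were taken by Pearson's r of log2 CPM over the 6 libraries, among 9200 tested genes with a mean of at least 100 counts (9201 for Osgin1). These r values describe 2 groups of 3 libraries and carry no test. The nearest to Sqstm1 was Slc40a1, the gene of the iron exporter ferroportin (r = 0.995), at 19.2, 20.1 and 19.2 CPM in DMSO and at 36.5, 35.5 and 25.7 CPM in BPAP. Anapc16 and Trpv2 came next (r = 0.995 and 0.993), and 179 genes had an r above 0.95 with Sqstm1. Mafk was nearest to Cyc1, Psmc5 and Zfp771 (r = 0.999, 0.997 and 0.997), with 454 genes above an r of 0.95. Nfe2l2 was nearest to Stra13, Ndufb10 and Rexo2 (r = 0.996, 0.994 and 0.993), Keap1 to Myl6, Slc7a7 and Aldh1b1 (0.993, 0.985 and 0.979) and Mafg to Uck2, Alg11 and Marveld1 (0.995, 0.994 and 0.989). Bach1 was nearest to Galnt10, Dstyk and Abt1 (0.989, 0.987 and 0.985). Osgin1 reached at most 0.954, with Gm16286, followed by Gskip and Fam3a (0.923 and 0.911).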

How the data were processed

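The 6 RNA-seq libraries of RAW 264.7 cells were compared, grouped by the treatment label. Per the labels, RNA was extracted with TRIzol and libraries were made with a VAHTS V6 kit. The authors deposited whole-number counts and FPKM values for each gene and library. Per the submitters' processing notes, HISAT2 2.0.4, StringTie 1.3.3b and edgeR were used on GRCm38, with no role given.

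The deposited counts were filtered by edgeR's default rule, scaled by TMM and tested with edgeR 4.0.16 (quasi-likelihood, robust, R 4.3.3), with Benjamini-Hochberg adjustment over 11711 genes and a threshold of 0.05. The code was tested on simulated counts. Exon lengths and GC content came from GENCODE M21, and all 7 promoters from a RefSeq table. Alternatives were other scaling, no filter, DESeq2 1.42.0, limma 3.58.1 (voom, or trend on log2(FPKM + 1) for genes with a mean FPKM of at least 1), a replicate block, removal of each library's length and GC trend (lowess span 0.3), that removal with the block, and each library left out.

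The 7 genes and all lists were chosen with earlier results of these data known. Named genes are the 7, the genes of each list that passed, at most 4 by p, and the 3 nearest in pattern to each; others are marked in the text or had too few counts to test. Dpp3 and Flvcr1, of these lists, were not analysed here.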

Additional observations from a re-analysis of the deposited data

How the results depend on the processing

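Sqstm1 passed in all 15 alternatives, and 2 or 3 of the 7 genes were called higher and 0 lower in each of them. Without DMSO 1 the 2 were Sqstm1 and Nfe2l2. In the fits without 1 library, 1244 to 1654 of all tested genes were higher, the lowest without DMSO 1, against 1901 with all libraries. Over those fits the log2 fold change of Bach1 ranged from -0.0186 (without DMSO 1) to 0.0907 and that of Osgin1 from -0.0396 (without DMSO 2) to 0.55. With the length and GC trend removed, the log2 differences of Mafk to Bach1 and of Sqstm1 to Keap1 were 0.21 and 0.50, since that trend differs between the genes, and in the fits without 1 library they were 0.29 to 0.45 and 0.58 to 0.70. The median of the Keap1 and Cul3 list was 0.16 with the length and GC trend removed, -0.0057 with limma-trend on FPKM and -0.0237 to 0.0658 without 1 library, and that of the autophagy list -0.0373 to 0.0975. The turnover list had 3 to 7 genes lower and 0 to 4 higher over all alternatives, the CNC and Maf list 1 to 3 higher, and the antioxidant targets 14 to 20 higher and 0 or 1 lower. The cause was not tested. Whether the replicate numbers pair a DMSO with a BPAP library is not given in these sources and was not tested. Same-numbered deviations correlated at 0.101, 0.054 and 0.01, and those of different numbers at -0.086 to 0.045. With the replicate block, 2149 genes were higher and 2087 lower, and 3 of the 7 were higher, Nfe2l2 being added. At this depth Nqo1 and the other genes with few counts could not be tested.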

Other observations

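A few genes near this pathway varied more within the groups than between them, and are described because their values were seen. Nfe2l1, the gene of the Nrf2 relative that controls proteasome genes, was at 159, 209 and 454 CPM in DMSO and at 247, 672 and 190 CPM in BPAP, so that DMSO 3 and BPAP 2 were high and the groups overlapped (log2 fold change 0.43, SE 0.71, adjusted p = 0.686). Ncoa4, the receptor gene for autophagy of ferritin, was at 58.2, 76.7 and 75.9 CPM in DMSO and at 61.9, 13.0 and 76.7 CPM in BPAP, with BPAP 2 far below the other 5 libraries (log2 fold change -0.48, SE 0.67, adjusted p = 0.631). BPAP 2 was also the highest library for Mafg, Mafk, Nfe2l2 and Osgin1.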
